A study of Mus musculus with 6 samples.

Results

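Pericytes and smooth muscle cells of the vessel wall were described in a scRNA-seq table of spinal cord cells. Members were chosen by measured values, as cells with a value above 0 for at least 2 of 8 marker genes (Rgs5, Vtn, Kcnj8, Abcc9 and Higd1b, known from pericytes, and Myl9, Tagln and Acta2, known from contractile cells), a summed value of C1qa, Ctss and Tyrobp under 8 and no value for Cldn5. These conditions held in 76 of 13614 cells (0.558%, exact binomial 95% interval 0.440 to 0.698%). They were compared with the other 13538 cells and with 1388 cells that had a Cldn5 value of at least 1. The deposited values are whole numbers of unstated origin and were read as scores rather than UMIs, so that the depth of each cell is unknown and all intervals cover counting error over cells only. Values chose the members in these same cells, and what follows describes them without a test. A cell is said to have a gene where its value is above 0.

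The cells came from Nd6 mice, which carry a point mutation in the mitochondrially encoded complex I gene mt-Nd6, and from WT mice, either with EAE induced by immunization with MOG35–55 or as non-immunized controls. The labels list 2 libraries of Nd6 EAE mice, 2 of WT EAE mice, 1 of Nd6 control mice and 1 of WT control mice, and the EAE mice were taken 30 days after immunization. The methods give female mice of 8 to 20 weeks of age for EAE, and mice of both sexes for the controls. Mice were perfused with the transcription inhibitors actinomycin D and triptolide, the spinal cord was digested with enzymes, and no sorting step is described for these libraries. The mutation is not targeted to a cell type. A cell's name holds a barcode and 1 of 6 numbers that neither the table nor the labels link to a library, so genotype and EAE could not be compared and the table counts as 1 pooled sample, which allows no test. Cells with the same number form sets that are called A to F here, from the largest (4633 cells) to the smallest (809 cells). They share 18 barcodes, carried by 36 cells of which 1 was a member.

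Pericytes sit on capillaries inside the basement membrane that they share with endothelial cells, and are recruited and kept there by PDGF-B from the endothelium acting on the receptor PDGFRB. Smooth muscle cells ring arterioles and venules, and carry the actin, myosin and tropomyosin forms that set vessel tone, with Notch3 signalling in their differentiation. In the inflamed spinal cord both form part of the barrier that immune cells cross.

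Set D and set E stood apart from the rest in genes of activated myeloid cells. Apoe, which encodes a lipid carrier, was found in 40.8% and 38.9% of the non-member cells of sets D and E and in at least 99.9% of those of sets A, B, C and F, and Spp1, the gene of osteopontin, in 9.41% and 8.39% against 79.4 to 97.5%. Total values per cell lay between 687 and 1578 (median 962) and genes per cell between 138 and 1287 (median 547). Members had a median total of 858.5 and 494.5 genes, against 963 and 547 in the other cells. Their median share of mitochondrially encoded genes was 7.67%, against 5.91%.

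The rule genes chose the members, so their values are given as a description. Rgs5, which encodes a regulator of G protein signalling, was found in 61 members (80.3%), with a lowest, median and highest value of 0, 6 and 34, and in 3.72% of the other cells. Vtn, the gene of vitronectin, was found in 60 members (78.9%) with a highest value of 33, against 5.61% of the other cells. Both genes were present together in 53 members. Myl9, a regulatory light chain of smooth muscle myosin, was found in 64.5% of members, Acta2, smooth muscle actin, in 32.9%, and Tagln, an actin-binding protein, in 26.3%, against 2.39%, 4.73% and 3.15% of the other cells. Higd1b was found in 38.2% of members and 0.665% of the others. Abcc9 and Kcnj8 encode the 2 subunits of a vascular KATP channel and lie next to each other at chr6:142587862-142702315 and chr6:142564837-142571614 (GRCm38, both on the minus strand), 16247 bases apart. Of the 24 members with Abcc9 and the 17 with Kcnj8, 13 had both. Having both is enough for the rule on marker genes, so that no contrast with the other cells can be read from this count.

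**Figure D1:**
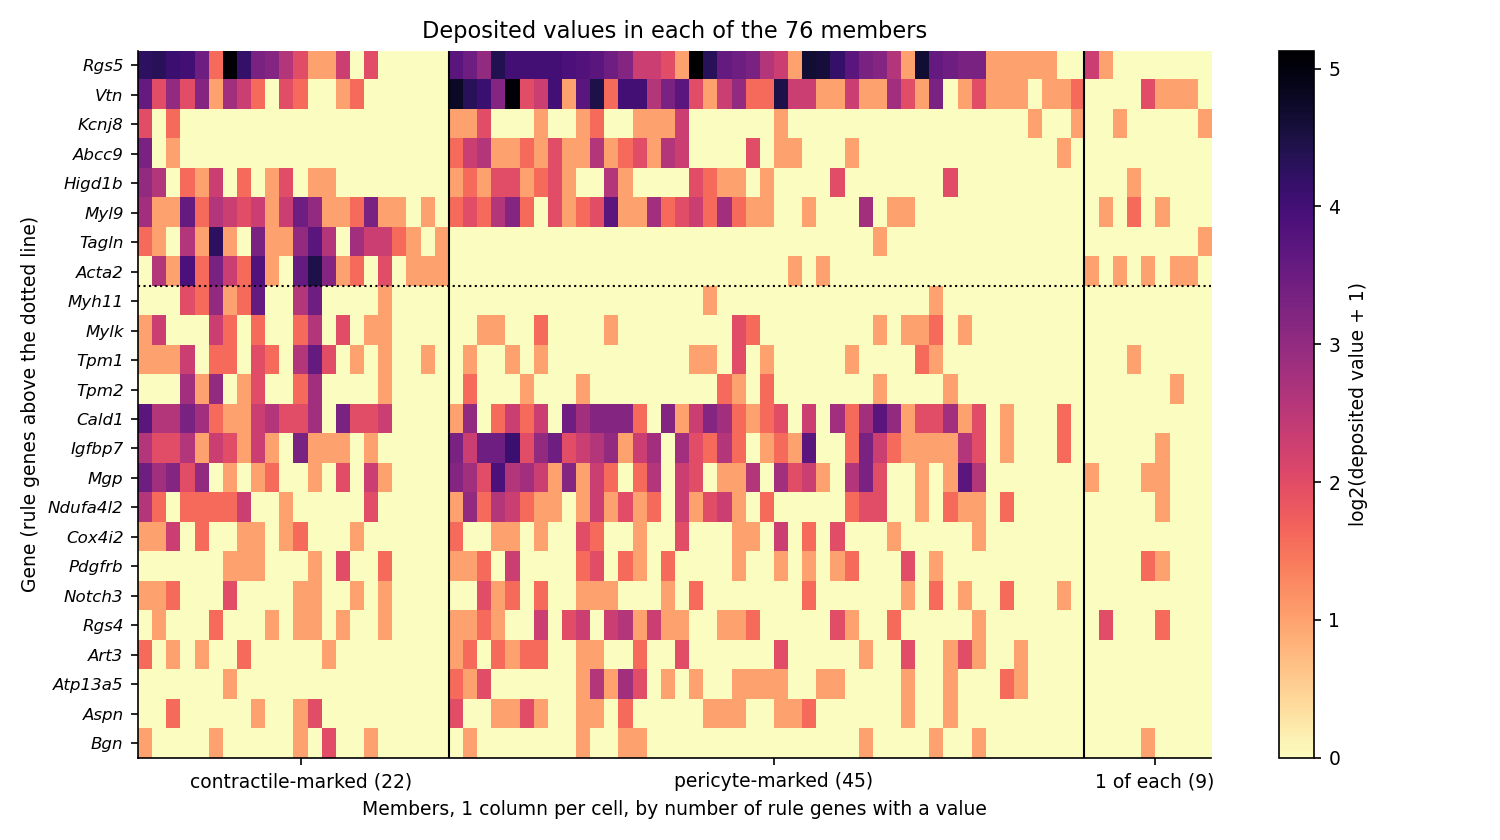
Deposited values (colour, log2 of the value plus 1) of 24 genes (vertical axis, rule genes above the dotted line) in each of the 76 members (horizontal axis, 1 column per cell), grouped into 22 contractile-marked and 45 pericyte-marked members and 9 with 1 gene of each kind. Within each group cells with more rule genes stand further left, and the 9 members with 1 gene of each kind had no value for Cald1.

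The number of rule genes per member ranged from 2 to 7. It was 2 in 25 members, 3 in 10, 4 in 10, 5 in 22, 6 in 8 and 7 in 1, so that 41 members (53.9%) had 4 or more. The 25 members with exactly 2 rule genes lay just inside the rule. Ndufa4l2, a mitochondrial protein gene that the rule did not use, was found in 24% of them and in 62.7% of members with 3 or more rule genes. Cald1, the actin- and myosin-binding caldesmon, was found in 28% and 88.2%, and Pdgfrb in 12% and 41.2%. Just outside the rule, 201 cells had 1 rule gene and met the other conditions, and there Ndufa4l2 was found in 0.995%, Cald1 in 7.46% and Pdgfrb in 2.49%. A second edge lay at the limit on myeloid genes. Of the 146 cells with 2 or more rule genes, no Cldn5 and a myeloid sum of 8 to 15, 4.79% had Ndufa4l2, 11.0% had Cald1 and 99.3% had C1qb, a complement gene of microglia. Among members, those with a myeloid sum of 4 to 7 (34 cells) had Notch3 in 17.6% and Pdgfrb in 20.6%, and those with a sum of 0 to 3 (42 cells) had each of them in 40.5%.

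**Figure D2:**
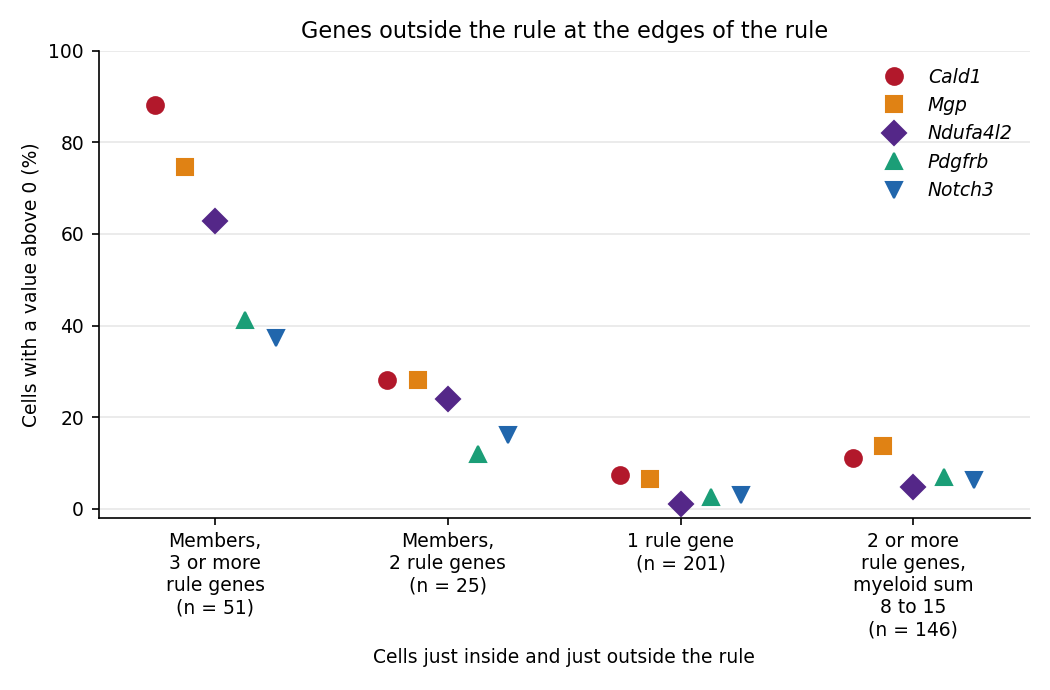
Percent of cells with a value above 0 (vertical axis) for 5 genes outside the rule, in members with 3 or more and with exactly 2 rule genes and in 2 groups of cells just outside the rule (horizontal axis, with the number of cells). Cald1 was found in 88.2% of members with 3 or more rule genes, 28% of those with 2, and 7.46% of cells with 1.

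The label was checked against markers of other cell types. Endothelial markers other than Cldn5, which the rule fixed, summed to a median of 1 in members, against 25 in the 289 Cldn5 cells that also met the myeloid limit, and 7 members had 3 or more of these 21 markers. Both groups were chosen by Cldn5, so this contrast was in part set by the choice of cells. With Cldn5 counted, the median sum was 1 in members, 1 in the 2057 other cells that met the myeloid limit and 2 in all other cells. A low sum was therefore not particular to members. Of the defining fibroblast genes, Pdgfra, Lum and Islr had no value in any member, and Dcn and Col1a1 were each found in 1 member. The others, Col1a2, Col3a1 and Slc6a13, are not reported here, and only 9 of the 28 genes of the wider list had no value in any member. The whole list of 28 fibrillar matrix and fibroblast genes nevertheless had a value in 65 members (85.5%), with a mean sum of 6.39, against 0.700 in the other cells. Of its genes, 3 were called higher (Mgp, Igfbp7 and Bgn, given with the matrix genes). Its sum reached 44 in members, but at most 16 in contractile-marked and 24 in pericyte-marked members. The highest sum thus lay in a member with 1 gene of each kind. Astrocyte, ependymal and Schwann cell lists had 3 or more markers in 2 members each, and the proliferation list in 1. A single contractile-marked member reached a Schwann cell sum of 62, while the median over members was 0. In all, 13 members had 3 or more markers of one of 10 lists of other cell types, 8 of them with exactly 2 rule genes. This count leaves out the fibroblast and erythroid lists, for which members with 3 or more markers were not counted. It also leaves out the oligodendrocyte and myeloid lists, of which 40 (52.6%) and 61 (80.3%) of members had 3 or more markers, against 72.0% and 97.6% of the other cells. Among the 63 members without such markers of the 10 lists Cald1 was found in 73.0%, Ndufa4l2 in 54.0% and Pdgfrb in 33.3%, against 68.4%, 50% and 31.6% over all 76.

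Myeloid and oligodendrocyte genes were present in most members. The 17 myeloid markers, 3 of which the rule limited, summed to between 0 and 44 (median 12.5) in members, against a median of 52 in the other cells and 16 in the 2057 other cells with a myeloid sum under 8. All 17 markers had a value in at least 1 member. C1qb was found in 55.3% of members, 46.7% of the 289 Cldn5 cells under the myeloid limit and 93.9% of the other cells. Mbp, a myelin gene, was found in 89.5% of members, against 95.1% of the others. The 11 oligodendrocyte markers summed to a median of 7 and at most 94 in members (mean 13.5), against a median of 14 in the other cells (mean 16.9). The part of RNA from outside these cells in such values was not tested.

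Outside the rule, the members stood apart from the other cells in 2 known gene groups, pericyte and contractile genes, and in some genes of mitochondria, matrix and ion transport. A gene was called higher where at least 10% of members had a value and the share was at least 2 times that of the comparison cells, and lower in the reverse case. Against all other cells 1642 genes could be called, of which 384 were higher (23.4%) and 293 lower (17.8%). Leaving out set A gave 577 higher genes. Since the rule worked on the same cells, these counts are a description, and a gene rare in the other cells could pass the 10% minimum only by being higher in members. Against the 1388 Cldn5 cells 300 of 1766 genes were higher (17.0%) and 373 lower (21.1%). Most of these Cldn5 cells also had myeloid genes (median myeloid sum 14, Tyrobp in 82.8%), and 8 of the 17 myeloid markers were called lower in members against them. The 289 Cldn5 cells with a myeloid sum under 8 served therefore as the nearer endothelial comparison, which was chosen after seeing the data. There 223 of 1967 genes were higher (11.3%) and 511 lower (26.0%), with all 21 endothelial markers other than Cldn5 among the lower ones. These 289 cells had a median total of 1031 and 632 genes, against 858.5 and 494.5 in members. The shares were not adjusted for this, so that lower calls against them are to be read with it in mind. Against the 2057 other cells with a myeloid sum under 8, 349 of 1524 genes were higher (22.9%) and 118 lower (7.74%).

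**Figure D3:**
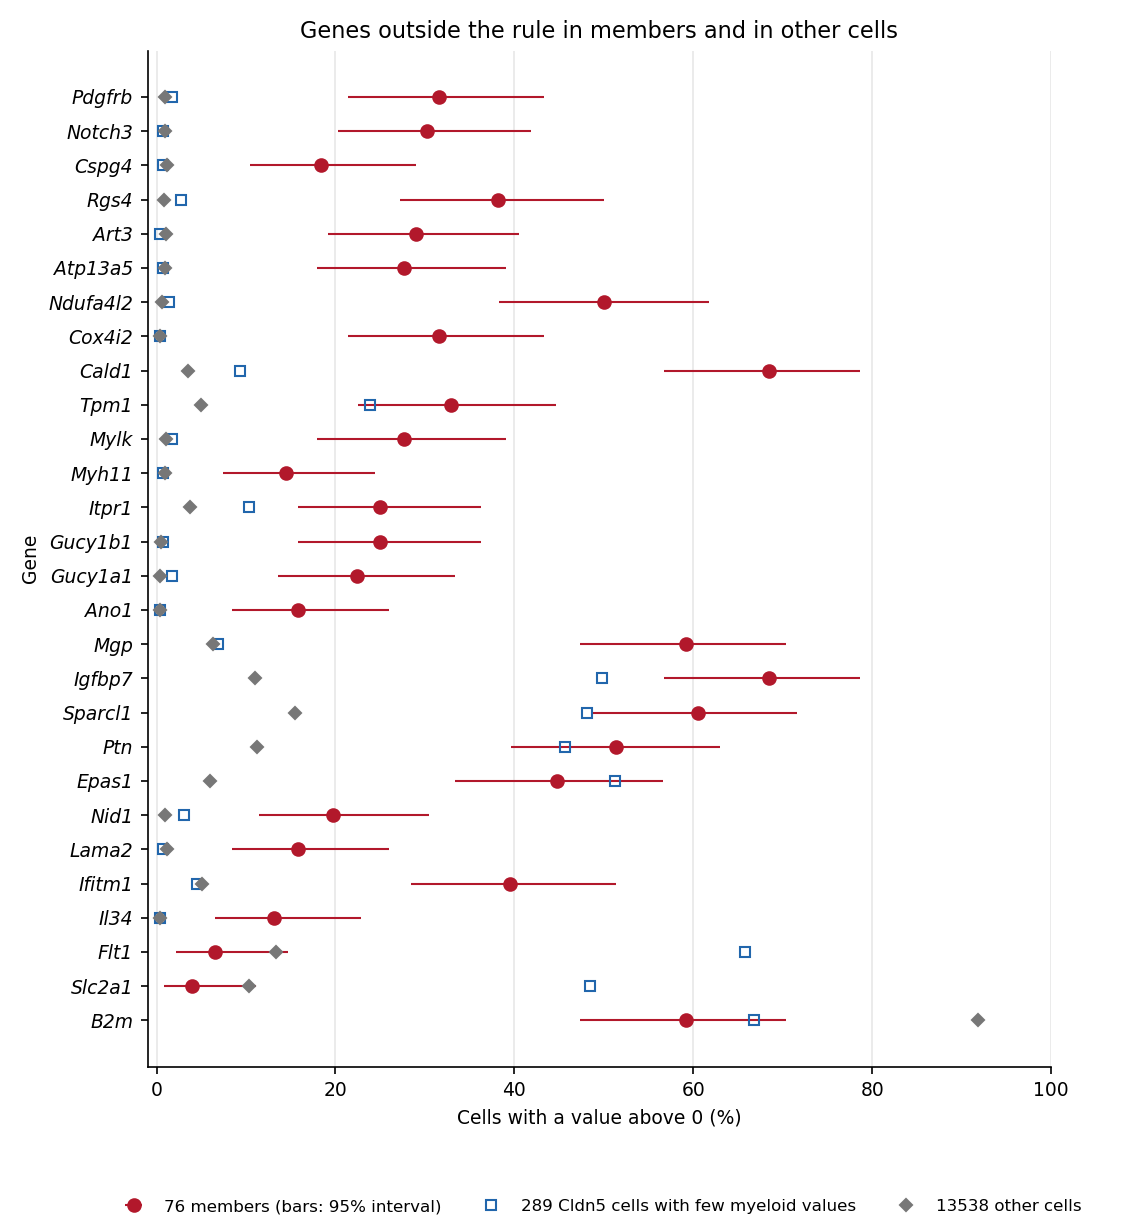
Percent of cells with a value above 0 (horizontal axis) for 28 genes outside the rule (vertical axis) in the 76 members (points with exact binomial 95% intervals), the 289 Cldn5 cells with a myeloid sum under 8 (open squares) and the 13538 other cells (diamonds). Cald1 reached 68.4% of members, whereas the shares of Tpm1, Ptn and Epas1 in the Cldn5 cells lay within the intervals of the members.

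Pericyte genes that the rule did not use were found in many members. Of 26 such genes, 16 were called higher than in all other cells, none was lower, and 10 were under the minimum in both groups. Of all genes that could be called, 23.4% were higher and 17.8% lower. Over all 26 the median difference in share was 12.5 percentage points, beside -0.10 over all genes of the table. Pdgfrb was found in 24 members (31.6%, interval 21.4 to 43.3%) with values of up to 4, against 0.997% of the other cells and 1.73% of the nearer Cldn5 cells. By set, 4 of 22 members of set A had it, 5 of 16 of set B, 4 of 8 of set C, 5 of 13 of set D, 6 of 12 of set E and none of 5 of set F. Notch3, a receptor of mural cells, was found in 23 members (30.3%), against 0.982% of the others. It was present in only 1 of 22 members of set A, but in 7 of 16 of set B, 4 of 8 of set C, 5 of 13 of set D, 4 of 12 of set E and 2 of 5 of set F. Cspg4, the NG2 proteoglycan, was found in 18.4% of members and 1.20% of the others. Rgs4, a second regulator of G protein signalling that lies 45663 bases from Rgs5 on chromosome 1, was found in 38.2% and 0.820%. Of the 29 members with Rgs4, 27 also had Rgs5. Rgs5 helped to choose the members and was found in 61 of all 76, so no link between the 2 genes can be read from this count. Art3 was found in 28.9% of members and Atp13a5, which encodes a P-type ATPase, in 27.6%, against 1.10% and 0.945% of the others. Tbx18, a transcription factor of mural cells, and Steap4 had no value in any member, and were found in 7 and 23 of the other cells.

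Among genes of the respiratory chain, a pair of alternative complex IV forms stood out. Ndufa4l2 (chr10:127514967-127517154, plus strand), a paralog of the complex IV subunit gene Ndufa4 and known to respond to low oxygen, was found in 38 members (50%, interval 38.3 to 61.7%), against 0.613% of the other cells and 1.38% of the nearer Cldn5 cells. It was present in 8 of 22 members of set A, 7 of 16 of set B, 5 of 8 of set C, 7 of 13 of set D, 6 of 12 of set E and 5 of 5 of set F. In each of the 6 sets the share in members exceeded that in the other cells of the set, by 35.9 to 97.9 percentage points. Cox4i2, the alternative form of complex IV subunit 4, was found in 24 members (31.6%), against 0.421% of the others, and 15 members had both genes. Of 15 complex IV subunits and paralogs 13 could be called. These 2 genes were higher and none was lower, beside 23.4% and 17.8% of all genes. The usual forms Cox4i1 and Ndufa4 were found in 55.3% and 19.7% of members, against 56.2% and 23.1% of the others. Of 36 nuclear complex I genes 28 could be called, of which 1 was higher (Ndufb2, 18.4% against 8.34%) and none lower. None of the 7 mitochondrially encoded complex I genes was called, among them mt-Nd6, found in 27.6% of members and 14.2% of the others. That gene differed between sets in the other cells, with 42.0% and 39.6% in sets D and E and 6.58 to 14.2% in sets A, B, C and F.

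Among receptors and ligands of the signals that tie mural cells to endothelium, Pdgfrb and Notch3 were higher in members and most of the others called were lower than in Cldn5 cells. Of 18 receptors of the PDGF, Notch, TGF-beta, angiopoietin, VEGF and S1P families, 7 could be called against all other cells. Of these, 4 were higher in members (Pdgfrb, Notch3, Notch1 and S1pr3) and 2 lower, beside 23.4% and 17.8% of all genes. Against the nearer Cldn5 cells 14 could be called, of which 3 were higher and 8 lower, beside 11.3% and 26.0% of all genes. S1pr3, a sphingosine 1-phosphate receptor, was found in 13.2% of members and 0.346% of these cells, while S1pr1 was found in 5.26% and 22.1%. The endothelial receptors Flt1, Tek, Eng and Acvrl1 were found in 6.58%, 1.32%, 6.58% and 1.32% of members, against 65.7%, 23.2%, 30.4% and 23.2% of these cells. Of 16 ligands only 3 could be called against these cells, and all 3 were lower. Pdgfb was found in 1.32% of members and 18.0% of the nearer Cldn5 cells, Pdgfd in 3.95% and 14.2%, and Jag2 in no member and 10.7%. Of 14 target genes only 2 could be called against these cells, and both were lower, Id1 (3.95% against 28.7%) and Id3 (9.21% against 29.8%). Heyl and Hey2, targets of Notch, were found in 5.26% and 9.21% of members and 0.207% of all other cells each.

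Contractile genes outside the rule formed a second group. Of 21 in the table, 9 could be called against all other cells. Of these, 7 were higher and none lower, beside 23.4% and 17.8% of all genes. The median difference over the 21 was 6.39 percentage points. Cald1 was found in 52 members (68.4%, interval 56.7 to 78.6%), with a lowest, median and highest value of 0, 2 and 12, against 3.46% of the other cells. In sets A to F it was present in 12 of 22, 11 of 16, 6 of 8, 10 of 13, 8 of 12 and 5 of 5 members. Tpm1, a tropomyosin, was found in 32.9% of members, 4.92% of the others and 23.9% of the nearer Cldn5 cells, where it was not called. Mylk, the myosin light chain kinase, was found in 27.6% and 1.00%, Tpm2 in 22.4% and 2.57%, and Myh11, the smooth muscle myosin heavy chain, in 11 members (14.5%) and 0.923% of the others. Cnn1 and Synpo2, which are known from smooth muscle, had no value in any member.

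Ion transport and the nitric oxide pathway were also represented. Of 21 genes of ion channels and calcium handling, 9 could be called against all other cells. All 9 were higher, among them the rule genes Kcnj8 and Abcc9, beside 23.4% of all genes that could be called. Genes rare in the other cells could be called only as higher, so this count is a description. Itpr1, an intracellular calcium release channel, was found in 25.0% of members and 3.69% of the others, Ano1, a calcium-activated chloride channel, in 15.8% and 0.406%, and Cacna1c, an L-type calcium channel, in 13.2% and 0.643%. Gucy1a1 and Gucy1b1 encode the 2 subunits of the nitric oxide receptor guanylate cyclase and lie 17737 bases apart on chromosome 3. They were found in 17 and 19 members, of which 8 had both, whereas 50 and 65 of the other cells had them and 1 had both.

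Matrix genes separated the members from the other cells, but less so from endothelial cells. Of 23 basement membrane genes 13 could be called against all other cells. Of these, 12 were higher and none lower, beside 23.4% and 17.8% of all genes. Against the nearer Cldn5 cells 14 could be called, of which 4 were higher and none lower, beside 11.3% and 26.0% of all genes. Lama2 was found in 15.8% of members and 0.692% of these cells, Nid1 in 19.7% and 3.11%, Lamc1 in 21.1% and 6.57%, and Lamc3 in 10.5% and 0.692%. The type IV collagen genes Col4a1 and Col4a2 were found in 21.1% and 13.2% of members, against 20.8% and 21.1% of the nearer Cldn5 cells. Their gene models overlap by 22 bases on opposite strands at the start of each gene. Of 28 fibrillar matrix and fibroblast genes only 4 could be called against all other cells. Mgp, Igfbp7 and Bgn were higher, and 1 was lower, Fn1 (9.21% against 22.3%). Mgp, matrix Gla protein, an inhibitor of calcification, was found in 45 members (59.2%), against 6.28% of the others and 6.92% of the nearer Cldn5 cells. Igfbp7 was found in 68.4% of members, 11.0% of the others and 49.8% of the nearer Cldn5 cells, and was not called against these.

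The genes with the largest difference in share against all other cells were, after Rgs5 and Vtn, Cald1, Myl9, Igfbp7, Mgp and Ndufa4l2, in that order. The share of cells with a gene also depends on transcript length and depth, so this order compares groups of cells and not levels of genes. All 20 genes with the largest difference, which were picked for it in these cells and include 5 rule genes, had a larger share in members than in the other cells of each set. Pdgfrb and Cspg4, which are not among the 20, had a larger share in members in 5 of the 6 sets. Epas1, an oxygen-regulated transcription factor of vessels, was found in 44.7% of members, 5.98% of the others and 51.2% of the nearer Cldn5 cells. Over all 13614 cells the presence of a gene was correlated with the number of rule genes most for Ndufa4l2 (Pearson r = 0.277), Cox4i2 (0.223), Nbl1 (0.208), Cald1 (0.203) and Rgs4 (0.186), among 315 genes found in at least 20 members. Over the 2133 cells with a myeloid sum under 8 these r were 0.673, 0.540, 0.445, 0.451 and 0.464. Cells share libraries and depth, so these values only describe likeness.

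The members were divided into 2 kinds by their rule genes. Those with at least 2 of Myl9, Tagln and Acta2 were called contractile-marked (22 members, 28.9%), those with at least 2 of the 5 pericyte genes and fewer than 2 contractile genes were called pericyte-marked (45, 59.2%), and 9 (11.8%) had 1 gene of each kind. Of the 22 contractile-marked members, 15 also had 2 or more pericyte genes. Contractile-marked members had a median of 537 genes, against 488 in pericyte-marked members. Of 1905 genes, 595 were called higher in contractile-marked members (31.2%) and 364 lower (19.1%), and the first count was 1050 without set A and 1082 without set F, so that both counts rest on few cells.

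Contractile genes that the split did not use had larger shares in contractile-marked members. Of 21 genes, 16 could be called. Of these, 12 were higher and none lower, beside 31.2% and 19.1% of all genes that could be called. The median difference over the 21 was 18.2 percentage points, beside 0 over all genes of the table. Myh11 was found in 9 of 22 contractile-marked members (40.9%, interval 20.7 to 63.6%) with values of up to 11, and in 2 of 45 pericyte-marked members (4.44%, interval 0.543 to 15.1%), each at a value of 1. Tpm1 was found in 63.6% and 22.2%, and Flna, filamin A, in 40.9% and 8.89%. The intervals did not overlap for Tpm1 and overlapped slightly for Flna. Lmod1, leiomodin of smooth muscle, was found in 18.2% of contractile-marked members, Pln, phospholamban, in 13.6%, and Myocd, the coactivator myocardin, in 9.09%, and all of them in no pericyte-marked member. Cavin1 and Crip2 were found in 50.0% and 59.1% of contractile-marked members and 13.3% and 22.2% of pericyte-marked members. Tagln and Acta2, which made the split, were each found in 81.8% of contractile-marked members, and in 2.22% and 4.44% of pericyte-marked members.

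**Figure D4:**
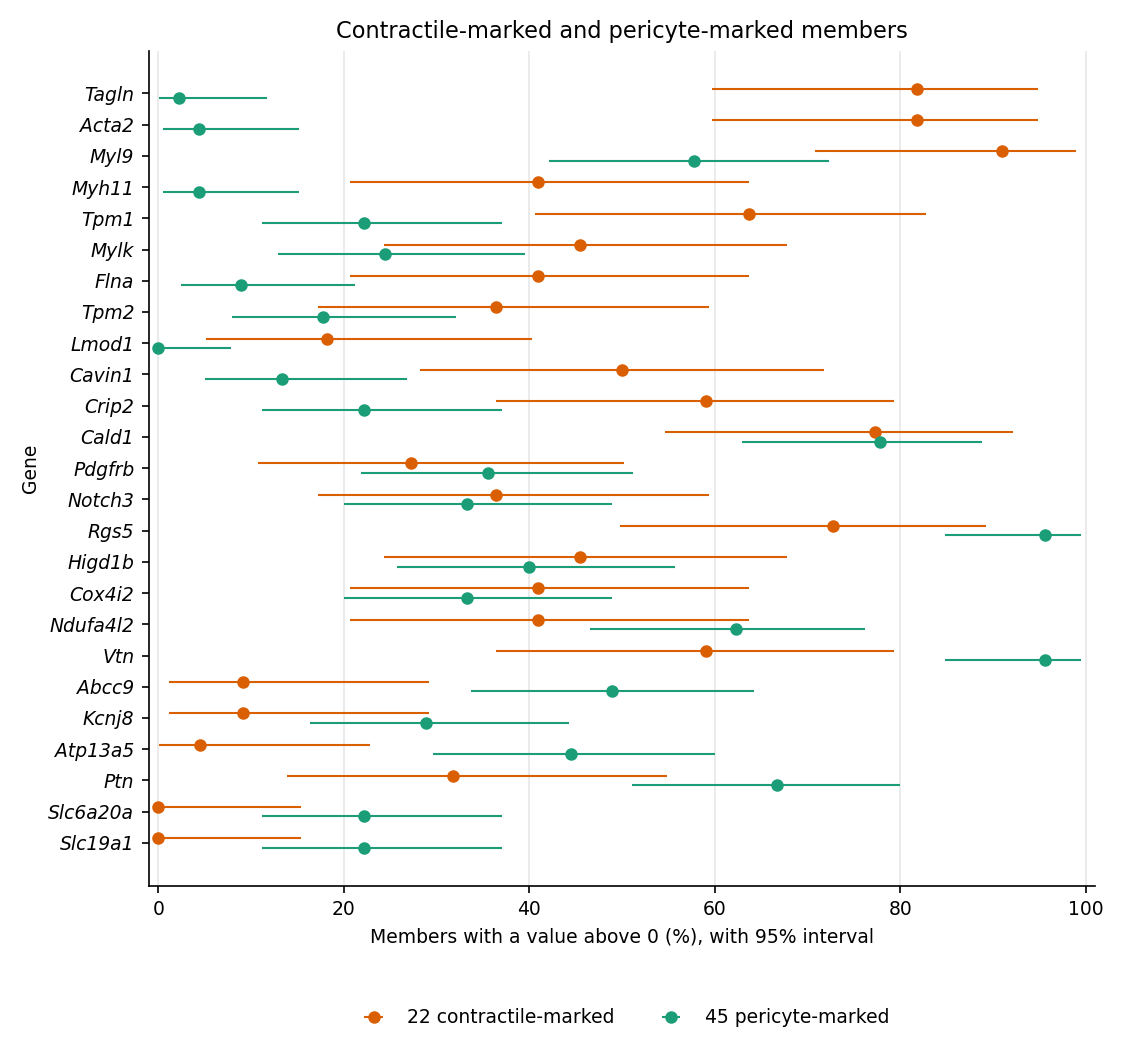
Percent of members with a value above 0 (horizontal axis, points with exact binomial 95% intervals) for 25 genes (vertical axis) in the 22 contractile-marked and the 45 pericyte-marked members. Myh11 and Tpm1 lay higher in contractile-marked members, Atp13a5 lay lower, and Cald1, Notch3 and Pdgfrb overlapped widely.

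Among pericyte genes more were lower than higher in contractile-marked members. Of the 26 outside the rule 18 could be called. Of these, 7 were lower in contractile-marked members and 2 higher (Mcam and Ednra), beside 19.1% and 31.2% of all genes. Atp13a5 was found in 1 of 22 contractile-marked members (4.55%) and 20 of 45 pericyte-marked members (44.4%). The transporter genes Slc6a20a and Slc19a1 were each found in no contractile-marked and 22.2% of pericyte-marked members, and the transcription factor gene Zic1 in none and 15.6%. Of the rule genes, Abcc9 was found in 9.09% and 48.9%, and Kcnj8 in 9.09% and 28.9%. Cald1 (77.3% and 77.8%), Notch3 (36.4% and 33.3%) and Pdgfrb (27.3% and 35.6%) had intervals that overlapped widely. The 9 members with 1 gene of each kind had no Cald1, Notch3, Cox4i2 or Art3, and Ndufa4l2 was found in 1 of them.

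Serum response factor and its partner myocardin drive contractile genes through a DNA element named the CArG box. Its strict form, with only A or T between CC and GG, was searched on both strands in the RefSeq promoters of GRCm38.p6. The window was the 300 bases from 250 before to 50 after each gene start. Boxes with another letter in the core were not searched. Of 25 contractile genes 19 had a promoter in the table, and 2 of them, Myl9 and Myl6, held this form. Over all promoters 488 of 27025 genes held it, and 1.63% of 32851 promoters. None of the 4 pericyte rule genes matched held it. The Myl9 stretch at chr2:156775288-156775327 (plus strand) is shown because Myl9 was the contractile rule gene found in most members, with the element in capitals.
Myl9: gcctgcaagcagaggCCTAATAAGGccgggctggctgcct
The match describes these letters only and says nothing of binding in these cells.

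Members were found in every set. They made up 0.475% of set A (22 cells), 0.401% of set B (16), 0.481% of set C (8), 0.993% of set D (13), 0.997% of set E (12) and 0.618% of set F (5). The intervals of all 6 sets overlapped, for example 0.298 to 0.718% in set A and 0.530 to 1.69% in set D, which does not show that the shares were equal. Sets D and E, which stood apart in Apoe and Spp1, had the largest shares and held 17.1% and 15.8% of all members. Shares over all members of genes that differ between sets, such as B2m, Apoe, Spp1 and mt-Nd6, depend on this make-up. As a share of the cells with a myeloid sum under 8, which themselves were 10.4 to 25.2% of a set, members were 2.20 to 5.31% (median 3.76%). Contractile-marked members numbered 8, 3, 0, 3, 5 and 3 in sets A to F, and pericyte-marked members 10, 12, 7, 8, 6 and 2. The non-member cells of set A also had the largest shares of 2 genes of the split. Acta2 was found in 9.37% and Tagln in 6.14% of them, against 1.53 to 5.35% and 0.839 to 3.73% in sets B to F. Myl9 was found in 3.71% of them, against 1.03 to 3.86%. Members of set A had a median of 431.5 genes and a myeloid sum of 5, and those of set D 575 genes and a sum of 0.

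**Figure D5:**
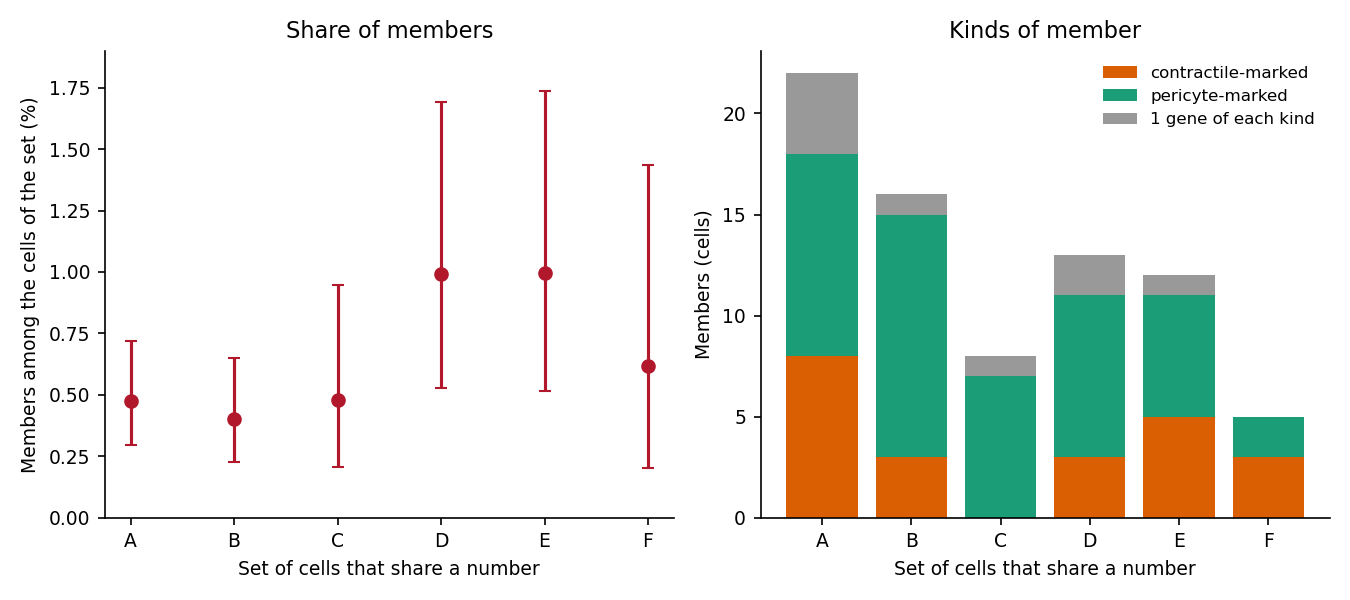
Left, members as a percent of the cells (vertical axis, points with exact binomial 95% intervals) in each of sets A to F (horizontal axis). Right, number of members of each kind per set. The share lay between 0.401% in set B and 0.997% in set E, and set C held no contractile-marked member.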

How the data were processed

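Per the paper's methods, Cell Ranger 7.1.0 (GRCm38, with intronic reads) and Seurat 4.3.0.1 were used. The authors deposited 1 table of 13614 cells and 18792 genes, and its whole numbers were taken as a score, because totals per cell span only 687 to 1578. Their derivation from UMIs is not given in the sources used here, so no count model was run and depth is unknown. For each gene the share of cells above 0 and the mean value were computed with Python 3.11.15, numpy 2.4.6 and scipy 1.17.1, with exact binomial (Clopper-Pearson) 95% intervals. No other filter on cells was applied and doublets were not called. The calling rule was tested on simulated data. The members and gene lists were chosen with earlier results of these data known. The text names the rule genes, members of the lists, the genes with the largest differences (20 against all other cells, 10 each way in the other comparisons) and the 10 most correlated. Gene positions are from GENCODE M21 and promoters from RefSeq, in which Tagln, Myh11 and Higd1b were not matched. Alternatives were stricter rules, the authors' stated filters (12556 cells), a band of 400 to 800 genes per cell, scaled values, other thresholds and leaving out each set. Some items among the listed genes are not reported here.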

Additional observations from a re-analysis of the deposited data

How the results depend on the processing

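Members numbered 47 where rule genes needed a value of 2 or more and 15 where C1qa, Ctss and Tyrobp had to be at 0, beside 76. Genes higher than in all other cells (384) numbered 651 and 1296 under these 2 settings, 1026 with a minimum of 5% of cells, 240 with a ratio of 3, and 352 to 577 with 1 set left out, most without set A. Genes lower (293) numbered 697 with the 5% minimum, 136 with the ratio of 3 and 118 against only other cells under the myeloid limit, a comparison chosen after seeing the data. Against Cldn5 cells, genes higher (300) numbered 548, 1189, 794 and 175 under the same 4 settings, and genes lower (373) 893 with the 5% minimum and 177 with the ratio of 3. Between contractile-marked and pericyte-marked members, genes higher (595) numbered 2162 with the myeloid genes at 0, 1236 in cells that met the stated filters, 1280 with the 5% minimum, 359 with the ratio of 3, and 543 to 1082 with 1 set left out (1050 without set A, 1082 without set F). Genes lower (364) numbered 1408 with the myeloid genes at 0, 817 with the 5% minimum and 187 with the ratio of 3. Stricter rules left fewer cells, so that fewer cells made up the 10% minimum. Of 352 gene shares over 32 genes and 11 settings, 305 stayed within the interval of the reported share. The 47 others comprised 16 with at least 3 rule genes and 17 with values of 2 or more, all larger, 13 with the myeloid genes at 0, of which 6 were larger and 7 smaller, and 1 larger without set E. After scaling to 10000 per cell, the means of all 384 and 293 genes called against all other cells and of all 300 and 373 called against Cldn5 cells kept the direction of the call, as did 586 of 595 and 360 of 364 between the kinds of member.

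No paired analysis was possible because no cell could be tied to a library or its replicate number. The table has no replicates for any group, 5 to 22 members per set, and a share of 0 of 22 cells leaves a wide interval.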

Other observations

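Genes of antigen presentation were compared with each group of cells. Of 10 MHC class I genes 6 could be called in each comparison. Of these 6, 2 were lower in members against all other cells, beside 17.8% of all genes that could be called. None was lower against the 2057 other cells with a myeloid sum under 8 and 1 against Cldn5 cells under that limit, beside 7.74% and 26.0%. Of 7 MHC class II genes 5 could be called against all other cells, of which 2 were lower. Against the 2057 cells and against Cldn5 cells under the limit 4 could be called, with none lower in either. Against Cldn5 cells under the limit 1 was higher, H2-Eb1 (26.3% against 11.1%). These 2057 cells still had a higher median sum of the 17 myeloid markers than members (12.5 in members and 16 in these cells). B2m, the light chain of class I molecules, was found in 59.2% of members, 91.9% of all other cells, 69.9% of other cells under the myeloid limit and 66.8% of Cldn5 cells under that limit. It differed between sets in members and other cells alike. In sets A, B, C and F it was found in 16 of 22, 14 of 16, 7 of 8 and 3 of 5 members, and in 93% or more of the other cells of these sets. In sets D and E it was found in 4 of 13 and 1 of 12 members, and in 76.2% and 71.1% of the other cells. H2-D1 was found in no member of sets D and E and in 37.5 to 62.5% of members of the other sets. Apoe and Spp1 followed the sets in the same way, with Apoe in 5 of 13 and 1 of 12 members of sets D and E and in every member of the other sets, and Spp1 in none of the 25 members of sets D and E. The part of RNA from outside the cells in these values was not tested, and genotype or EAE cannot be assigned to the sets.

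Of 25 interferon response genes 9 could be called against all other cells. Of these 9, 1 was higher and 5 were lower, beside 23.4% and 17.8% of all 1642 genes that could be called. Against the 2057 other cells with a myeloid sum under 8, 7 of the 25 could be called. There 2 were higher (Ifitm1 and Ifitm2) and 1 was lower (Psmb8), beside 22.9% and 7.74% of all genes. Higher in both comparisons was Ifitm1, a membrane protein gene of the antiviral response, found in 30 members (39.5%), 5.13% of all other cells and 4.50% of Cldn5 cells under the myeloid limit, and present in at least 3 members of every set. Ly6e was found in 21.1% of members, 62.1% of all other cells and 56.1% of those Cldn5 cells. Il34, which encodes a ligand of the microglial receptor CSF1R, was found in 10 members (13.2%), against 0.362% of all other cells, in 13.6% of contractile-marked and 15.6% of pericyte-marked members. Cxcl12 was found in 7.89% of members and 40.1% of Cldn5 cells under the myeloid limit, Ccl2 in 3.95% of members and 7.39% of all other cells, and Il6 in no member.

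Most immediate early and flow-responsive genes that could be called had smaller shares in members than in Cldn5 cells under the myeloid limit. Of 18 genes 8 could be called there, of which 6 were lower and none higher, beside 26.0% and 11.3% of all genes. Klf2, a shear-responsive transcription factor of endothelium, was found in 5.26% of members and 41.2% of these cells, and Klf4 in 2.63% and 17.3%. Against all 1388 Cldn5 cells 3 genes could be called, with 1 higher and 1 lower, beside 17.0% and 21.1% of all genes. Against all other cells 2 could be called, with 1 higher and none lower, beside 23.4% and 17.8% of all genes. Rarres2, which encodes the attractant chemerin and had been listed as an ependymal marker, was found in 28.9% of members and 1.52% of all other cells, in 18.2% of contractile-marked and 40.0% of pericyte-marked members, while only 2 members had 3 or more of the 9 ependymal markers.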
